A study of Mus musculus with 16 samples.

Results

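The genes described here are 42 matrix and matrix-remodelling genes of mouse quadriceps: collagens other than the fibrillar ones, glycoproteins, enzymes that modify or crosslink collagen, proteases and protease inhibitors. They were taken by name from a list drawn up with earlier results of these data known, and all 42 were found among the 17370 genes of the deposited table. The quadriceps is the large muscle at the front of the thigh, and its RNA was read in 16 libraries, 4 in each of 4 groups. In these mice a knee ligament, the anterior cruciate ligament (ACL), was transected. For 7 days afterwards their drinking water held either 0.5% sucrose, the placebo, or an inhibitor of CSF1-R, the receptor on which macrophages depend for survival, dosed at 40 mg/kg. The groups are called healthy placebo, injured placebo, healthy inhibitor and injured inhibitor, and each library is named by its group and replicate number. Strain, sex and age are not given in the sources used here, nor is the inhibitor's name, and every sample was labelled skeletal muscle. The library names join 1 healthy and 1 injured quadriceps under each of 8 shared stems, which were read as 8 animals, 4 for each treatment. That reading comes from the names alone. Every healthy library name ends in L and every injured one in R. If these letters mean left and right, limb side and injury cannot be told apart. On the same reading, the healthy quadriceps is the other limb of a mouse with a transected ligament. Where replicates are not separate animals, a p-value measures only the spread between these samples.

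Extracellular matrix in muscle takes 2 main forms. Each fibre is wrapped in a basement membrane, a thin sheet in which laminin and type IV collagen networks are linked by nidogen, and laminin-211, which contains the laminin alpha 2 chain, anchors the fibre to it. Around and between fibres lies interstitial matrix, which after damage can be enriched in provisional and fibrotic components such as fibronectin, periostin, tenascin-C and crosslinked collagen, made mostly by fibroblasts and fibro-adipogenic progenitors. For the contrast between these forms, 5 members stood for the basement membrane (Col4a1, Col4a2, Col15a1, Nid1 and Lama2) and 13 for fibrotic matrix (Fn1, Postn, Tnc, Cthrc1, Tgfbi, Thbs1, Thbs2, Vcan, Col8a1, Col12a1, Lox, Loxl2 and Timp1). The other 24 members belonged to neither list.

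The start regions of 3 members are shown because they hold both sides of the contrast: the type IV collagen pair, which is transcribed from a shared region, and Postn, the fibrotic matrix gene that varied most in fold among members detected in every library. They were chosen after the expression values had been seen. Each run holds the 250 bases before and the 50 bases after the annotated start, from RefSeq on GRCm38.p6, written on the gene's own strand. In the Col4a1 (chr8:11312777-11313076, minus strand) and Col4a2 (chr8:11312555-11312854, plus strand) windows, capitals mark the 78 bases that both contain. In the Postn window (chr3:54360857-54361156, plus strand), capitals mark the letters TATAAA.
Col4a1: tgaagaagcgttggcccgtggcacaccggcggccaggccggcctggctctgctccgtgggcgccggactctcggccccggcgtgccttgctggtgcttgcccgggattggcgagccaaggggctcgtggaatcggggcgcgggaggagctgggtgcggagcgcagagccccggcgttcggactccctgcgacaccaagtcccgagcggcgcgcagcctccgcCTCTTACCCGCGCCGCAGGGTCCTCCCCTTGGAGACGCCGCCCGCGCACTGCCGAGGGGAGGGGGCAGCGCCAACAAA
Col4a2: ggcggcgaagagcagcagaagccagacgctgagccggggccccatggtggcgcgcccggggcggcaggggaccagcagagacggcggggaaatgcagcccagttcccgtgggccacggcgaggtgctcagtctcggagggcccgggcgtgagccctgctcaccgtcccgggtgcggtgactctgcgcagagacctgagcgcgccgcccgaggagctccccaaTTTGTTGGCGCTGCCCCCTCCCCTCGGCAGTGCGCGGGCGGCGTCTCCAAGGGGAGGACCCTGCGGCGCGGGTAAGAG
Postn: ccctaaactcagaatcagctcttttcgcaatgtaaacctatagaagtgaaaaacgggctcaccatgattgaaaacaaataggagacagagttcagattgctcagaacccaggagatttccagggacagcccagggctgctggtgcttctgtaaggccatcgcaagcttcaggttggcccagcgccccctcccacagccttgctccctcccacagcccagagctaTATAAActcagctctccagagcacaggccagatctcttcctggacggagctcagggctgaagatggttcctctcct
The start sites of Col4a1 and Col4a2 lie 21 bases apart on opposite strands, and the gene spans of GENCODE M21 overlap by 22 bases. GC content was 74.0% in the Col4a1 window and 73.7% in the Col4a2 window, against 53.0% in the Postn window. The median over all windows, which cover 27025 genes, was 52.7%. Postn has another RefSeq window, at chr3:54359017-54359316, which holds no TATAAA; the one printed contains the GENCODE start.

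A window was present for 30 of the 42 members, and 4 short motifs were counted on both strands in these and in all 27025 genes with a window. TATAAA, the letters of a TATA box, was found in 7 of 30 members (23.3%) against 15.7% of all genes, in 0 of 5 basement membrane members and in 3 of the 7 fibrotic matrix members that had a window (Postn, Tnc and Thbs2). GGGCGG, the core of a GC box, was found in 23 of 30 (76.7%) against 38.2%, in 4 of the 5 basement membrane and 5 of the 7 fibrotic matrix members. CCAAT was found in 10 of 30 (33.3%) against 41.1%, and TGANTCA, the letters of an AP-1 element, in 2 of 30 (6.67%) against 8.97%. In the printed Postn window TATAAA begins 26 bases before the start. These are matches of letters, counted without a test.

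Library totals were 20.1 to 27.1 M counts (M, mega). Levels are given as CPM, counts scaled to a library of 1 M after TMM scaling (trimmed mean of M values), and a count of 3 equals 0.109 to 0.159 CPM, a floor that covers counting error only. The summed level of 6 skeletal muscle markers was 87120 to 168900 CPM in all 16 libraries. Before any comparison, 4 libraries stood apart by the joint lining marker Prg4 (lubricin), with more than 100 CPM: healthy placebo 4 at 251, injured placebo 2 at 220, injured placebo 3 at 286 and healthy inhibitor 1 at 169. The highest Prg4 elsewhere was 19.5 CPM. Acan, a cartilage gene, was at 0 in all libraries other than these 4 and injured inhibitor 2. The summed level of 9 joint lining and cartilage markers was 13.4 to 323 CPM in healthy placebo and 19.4 to 348 in injured placebo. With the inhibitor it was 16.7 to 220 in healthy and 30.1 to 41.5 in injured quadriceps. Prg4, by which the 4 libraries were picked, made up most of the sum in them. Comp, Col2a1 and Col10a1 were also highest in these 4 libraries, while Chad, Col9a1, Col11a2 and Matn3 were not.

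Macrophage markers were also high in some of these libraries. The sum of 8 markers was 22.7 to 381 CPM in healthy placebo, 75.8 to 685 in injured placebo, 36.7 to 112 in healthy inhibitor, and 42.6 to 105 in injured inhibitor. Csf1r, which encodes the inhibitor's target, was at 1.83, 12.7, 3.45 and 29.9 CPM in healthy placebo 1 to 4, at 16.4, 63.8, 60.0 and 10.4 in injured placebo, at 14.5, 8.49, 6.97 and 3.39 with the inhibitor in healthy and at 9.51, 6.03, 11.6 and 7.85 in injured quadriceps. Its highest levels were in injured placebo 2 and 3 and healthy placebo 4. S100a8, a neutrophil gene, was above 3 CPM in healthy placebo 4 (5.78), injured placebo 2 (3.89) and healthy inhibitor 1 (4.53), and at 0.407 CPM or less elsewhere. In bulk tissue, fewer cells of a type and less RNA per cell cannot be told apart.

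The 42 genes mostly followed the same 3 libraries. Healthy placebo 4, injured placebo 2 and injured placebo 3 were the 3 highest libraries for 33 of the 42 members, including 12 of the 13 fibrotic matrix genes but 1 of the 5 basement membrane genes. Healthy placebo 4 was the highest library for 19 members and injured placebo 2 for 15. At the other end, healthy placebo 1 was the lowest library for 29 members. The highest libraries thus came from both the healthy and the injured placebo groups, and the lowest was a healthy placebo one too. These libraries were picked out after the values had been seen, so the counts are a description.

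**Figure D1:**
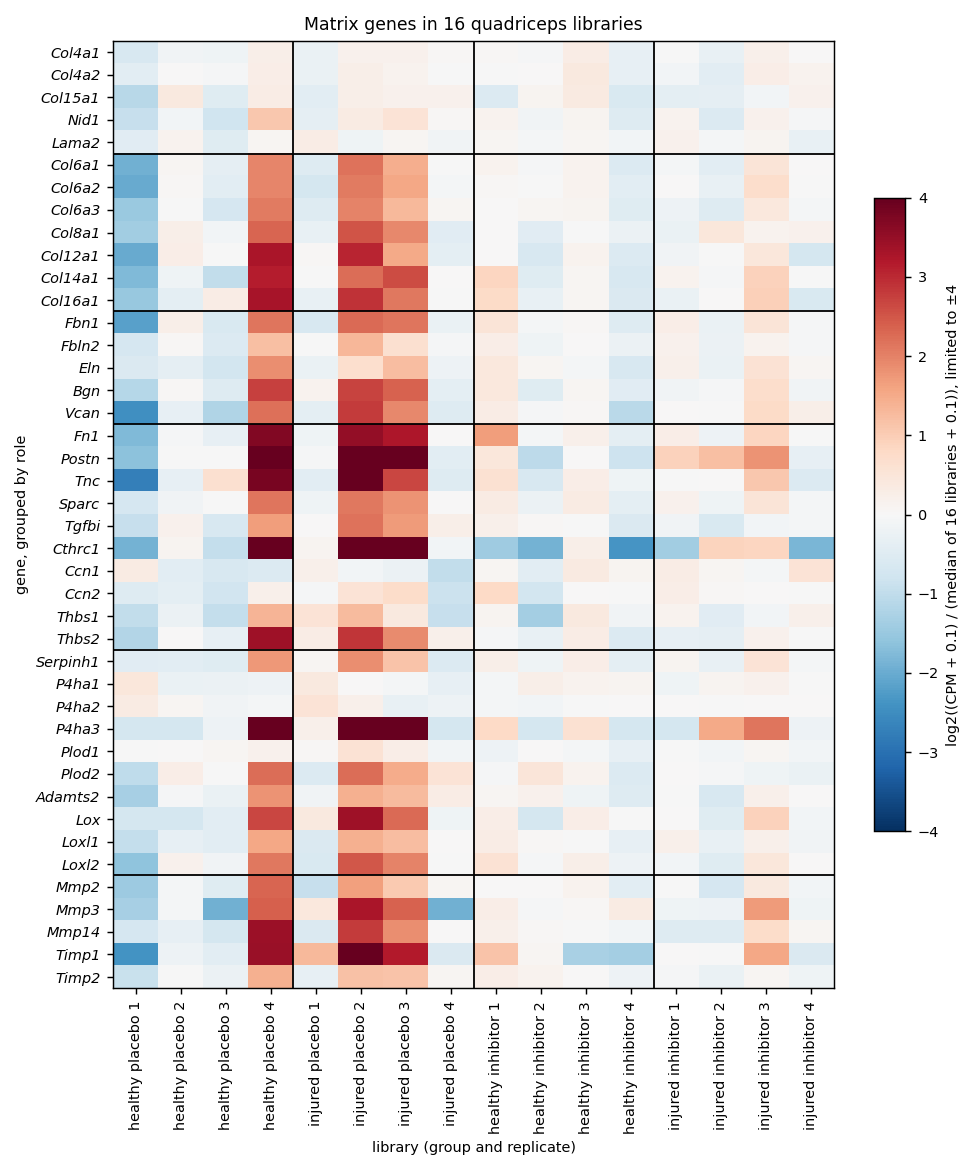
Level of each of the 42 genes (rows, grouped by role) in each of the 16 libraries (columns, by group and replicate), as log2 of CPM relative to the gene's median over libraries. Healthy placebo 4, injured placebo 2 and injured placebo 3 form high columns for most genes, while of the basement membrane rows at the top Nid1 alone has these 3 libraries as its highest.

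From the lowest to the highest of the 16 libraries, Lama2, Col4a2 and Col4a1 varied by factors of 1.74, 1.75 and 1.93, Col15a1 by 2.90 and Nid1 by 4.06, which is wider than Ccn1 at 2.88, Ccn2 at 3.13 and Fbln2 at 4.01 outside the list. Col4a1, the alpha 1 chain of type IV collagen, was at 68.1, 95.2, 93.2 and 126 CPM in healthy placebo 1 to 4, 88.1, 119, 120 and 110 in injured placebo; with the inhibitor it was at 110, 103, 131 and 84.4 in healthy and 105, 85.7, 123 and 107 in injured quadriceps. The 4 groups overlapped, and the highest library was 1.93 times the lowest. Its partner Col4a2, which joins it in the same trimer, ranged from 61.3 to 107 CPM. The ratio of Col4a1 to Col4a2 CPM stayed between 1.11 and 1.38 over the 16 libraries, with a Pearson correlation of 0.93 on the log2 scale. Both genes share the depth and scaling of each library. Counts over the 22 shared bases cannot be assigned if the counting ignored strand, which is not given in the sources used here. Lama2, the laminin alpha 2 chain whose loss causes a muscular dystrophy, was at 30.8, 46.7, 30.1 and 44.9 CPM in healthy placebo, 52.4, 38.1, 44.8 and 38.9 in injured placebo; with the inhibitor it was at 44.5, 39.9, 44.8 and 39.7 in healthy and 47.8, 40.5, 46.1 and 34.6 in injured quadriceps. None of the 3 libraries that led most members was the highest here. Col15a1, a collagen that tethers basement membrane to the surrounding matrix, ranged from 14.6 to 42.2 CPM. Nid1, nidogen, which links laminin and collagen IV, had the widest spread of the 5, from 34.3 CPM in healthy placebo 1 to 139 in healthy placebo 4, and was the 1 basement membrane gene whose 3 highest libraries were the same as for most members.

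The microfibrillar and fibril-associated collagens all had their highest values in the same 3 libraries. Col6a1, Col6a2 and Col6a3 encode the chains of type VI collagen, which forms beaded microfilaments next to the basement membrane. Col6a1 was at 15.2, 60.4, 45.1 and 224 CPM in healthy placebo, 40.4, 259, 157 and 56.9 in injured placebo; with the inhibitor it was at 63.5, 55.3, 62.9 and 39.3 in healthy and 53.8, 43.0, 82.6 and 57.7 in injured quadriceps. Within each placebo group the high and low libraries differed several-fold, and the inhibitor libraries lay inside the placebo range. The 3 chains moved together, with correlations on the log2 scale of 1.00 between Col6a1 and Col6a2 and 0.99 between Col6a1 and Col6a3 over 16 libraries. Their levels were 12.1 to 211 CPM for Col6a2 and 20.6 to 242 for Col6a3. Col12a1 and Col14a1, which decorate the surface of collagen fibrils, spanned 2.92 to 118 and 2.57 to 78.5 CPM. Col8a1, a short-chain network collagen, spanned 2.22 to 34.9 CPM, and Col16a1, another fibril-associated collagen, 0.934 to 28.5.

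Elastic fibre and proteoglycan genes had the same 3 highest libraries in 5 of 5 cases. Fbn1, the main microfibril component, reached 236 CPM in healthy placebo 4 and 257 and 234 in injured placebo 2 and 3, with a median of 53.3 over all libraries; 2442 of its 12128 annotated exon bases are shared with a predicted gene on the opposite strand. Bgn, biglycan, a small leucine-rich proteoglycan that binds collagen, was at 26.8, 61.0, 41.7 and 399 CPM in healthy placebo, 65.2, 389, 307 and 45.6 in injured placebo; with the inhibitor it was at 79.2, 42.4, 63.1 and 43.6 in healthy and 53.6, 58.0, 96.0 and 53.8 in injured quadriceps. The inhibitor libraries again lay inside the placebo range. Fbln2, fibulin-2, spanned 38.5 to 154 CPM, Eln, elastin, 8.86 to 54.7, and Vcan, versican, a large proteoglycan of provisional matrix, 0.895 to 37.8.

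Among the adhesive and matricellular proteins, the highest library was 108 times the median of the 16 for Cthrc1, 57.4 times for Postn, 18.2 times for Tnc and 13.04 times for Fn1. Fn1, fibronectin, the scaffold of provisional matrix (chr1:71585520-71653200, minus strand), was at 22.0, 71.9, 59.5 and 975 CPM in healthy placebo 1 to 4, 66.5, 854, 698 and 75.0 in injured placebo; with the inhibitor it was at 239, 71.2, 85.7 and 56.5 in healthy and 89.1, 65.0, 135 and 74.5 in injured quadriceps. The fourth highest library was healthy inhibitor 1, the other library with high Prg4. Postn, periostin, a matricellular protein of activated fibroblasts (chr3:54361109-54391037, plus strand), was at 3.04, 9.49, 9.57 and 551 CPM in healthy placebo, 9.38, 436, 215 and 7.14 in injured placebo; with the inhibitor it was at 13.2, 4.55, 9.61 and 5.35 in healthy and 18.1, 22.3, 33.6 and 7.63 in injured quadriceps. Healthy inhibitor 1 was below 3 of the 4 injured inhibitor libraries for it. Tnc, tenascin-C, a hexameric protein of injured and developing matrix, was at 0.662, 3.93, 7.74 and 70.4 CPM in healthy placebo, 3.71, 90.2, 31.8 and 3.44 in injured placebo; with the inhibitor it was at 7.69, 3.13, 6.01 and 4.39 in healthy and 4.92, 4.98, 10.5 and 3.35 in injured quadriceps. All groups overlapped for these 3 genes.

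**Figure D2:**
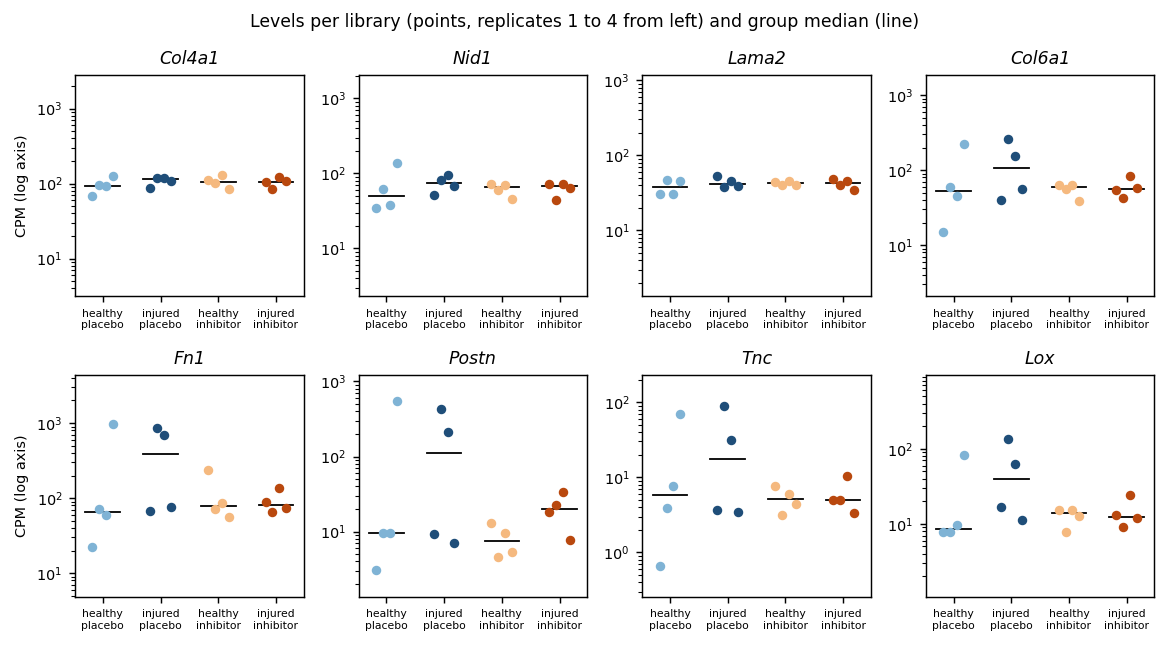
CPM on a log axis of Col4a1, Nid1, Lama2, Col6a1, Fn1, Postn, Tnc and Lox, 1 panel each, with a point for each library in its group (replicates 1 to 4 from left) and a line at the group median. In the panels of the lower row 1 healthy placebo and 2 injured placebo points sit far above the rest, with Postn at 551, 436 and 215 CPM, while Col4a1 stays between 68.1 and 131 CPM.

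Cthrc1, a secreted protein induced in activated fibroblasts, was the sparsest matricellular member. It was at 0.039, 0.452, 0.166 and 41.5 CPM in healthy placebo, 0.447, 44.6, 15.2 and 0.378 in injured placebo; with the inhibitor it was at 0.091, 0.038, 0.498 and 0 in healthy and 0.096, 0.847, 0.826 and 0.042 in injured quadriceps. In 6 of the 16 libraries it had fewer than 3 counts. A fitted difference for it rests on few counts in most libraries and on the few libraries where it was high. Its size is therefore uncertain. Tgfbi, an adhesion protein induced by TGF-beta, was at 9.19, 19.6, 11.2 and 55.7 CPM in healthy placebo, 17.6, 79.9, 57.3 and 20.5 in injured placebo; with the inhibitor it was at 20.04, 18.1, 17.5 and 11.8 in healthy and 15.9, 11.4, 16.2 and 16.5 in injured quadriceps. All 4 injured inhibitor libraries were below all 4 injured placebo ones. The same held for Thbs2, thrombospondin-2, at 20.7, 124, 62.8 and 19.4 CPM in injured placebo and 13.5, 13.3, 19.1 and 16.9 in injured inhibitor. Sparc, a collagen-binding protein of remodelling tissue, spanned 104 to 735 CPM, and Thbs1, thrombospondin-1, 6.73 to 44.9. Ccn1 and Ccn2 are matricellular targets of YAP signalling. Ccn1 did not share the pattern and spanned 15.9 CPM in injured placebo 4 to 45.9 in injured inhibitor 4. Ccn2 shared it in part: it spanned 12.7 CPM in injured placebo 4 to 39.8 in healthy inhibitor 1, followed by injured placebo 3 and 2 at 38.1 and 33.7, and it correlated over the libraries at 0.62 with Postn and 0.77 with Prg4.

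The collagen maturation and crosslinking genes split into steady and variable members. P4ha1 and P4ha2, catalytic subunits of prolyl 4-hydroxylase, spanned 44.3 to 76.3 and 20.6 to 37.0 CPM, and Plod1, a lysyl hydroxylase, 25.4 to 47.9. These 3 were within a factor of 1.89 from the lowest to the highest library. The third catalytic subunit, P4ha3, was at 0 in 6 libraries and under 3 counts in 9, yet at 8.60 CPM in healthy placebo 4 and at 7.34 and 3.09 in injured placebo 2 and 3. Plod2, the telopeptide lysyl hydroxylase linked to stiff fibrotic crosslinks, spanned 2.37 to 23.6 CPM. Lox, lysyl oxidase, which starts collagen and elastin crosslinking, was at 7.79, 7.82, 9.53 and 82.0 CPM in healthy placebo, 16.9, 134, 62.6 and 11.3 in injured placebo; with the inhibitor it was at 15.5, 7.87, 15.3 and 12.6 in healthy and 13.1, 9.21, 24.1 and 11.96 in injured quadriceps. Loxl1 and Loxl2, related oxidases, spanned 9.61 to 53.9 and 4.67 to 81.1 CPM. Serpinh1, the collagen chaperone HSP47, spanned 37.4 to 199 CPM, and Adamts2, which trims procollagen, 5.33 to 47.2.

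The proteases and inhibitors shared the 3 highest libraries in 5 of 5 cases. Mmp14, a membrane-bound collagenase that activates pro-MMP2, reached 119 CPM in healthy placebo 4 with a median of 10.9, and Mmp2, a gelatinase, 198 CPM there with a median of 39.6. Mmp3, stromelysin-1, was between 0.042 and 5.05 CPM and under 3 counts in 2 libraries. Timp1, an inducible metalloprotease inhibitor (chrX:20870166-20874735, plus strand), was at 0, 0.361, 0.291 and 5.69 CPM in healthy placebo, 1.21, 16.6, 4.65 and 0.252 in injured placebo; with the inhibitor it was at 1.05, 0.459, 0.115 and 0.106 in healthy and 0.430, 0.423, 1.45 and 0.255 in injured quadriceps. Its highest library was injured placebo 2. Timp2, the constitutive inhibitor that also takes part in MMP2 activation, spanned 59.0 to 295 CPM.

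Per length of annotated exon, the most abundant member was Sparc, with a median of 44.2 CPM per kb over the 16 libraries, followed by Timp2 at 28.2, Serpinh1 at 22.3, Ccn1 at 15.6 and Col4a1 at 14.2. The lowest were P4ha3 at 0.021, Mmp3 at 0.244 and Cthrc1 at 0.259 CPM per kb. The order by level did not follow the contrast: Lama2 stood at 2.60 CPM per kb, below Fn1 at 6.40, and Postn stood at 1.10. The ranges of these genes between libraries are wide enough that neighbours in the order overlapped.

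**Figure D3:**
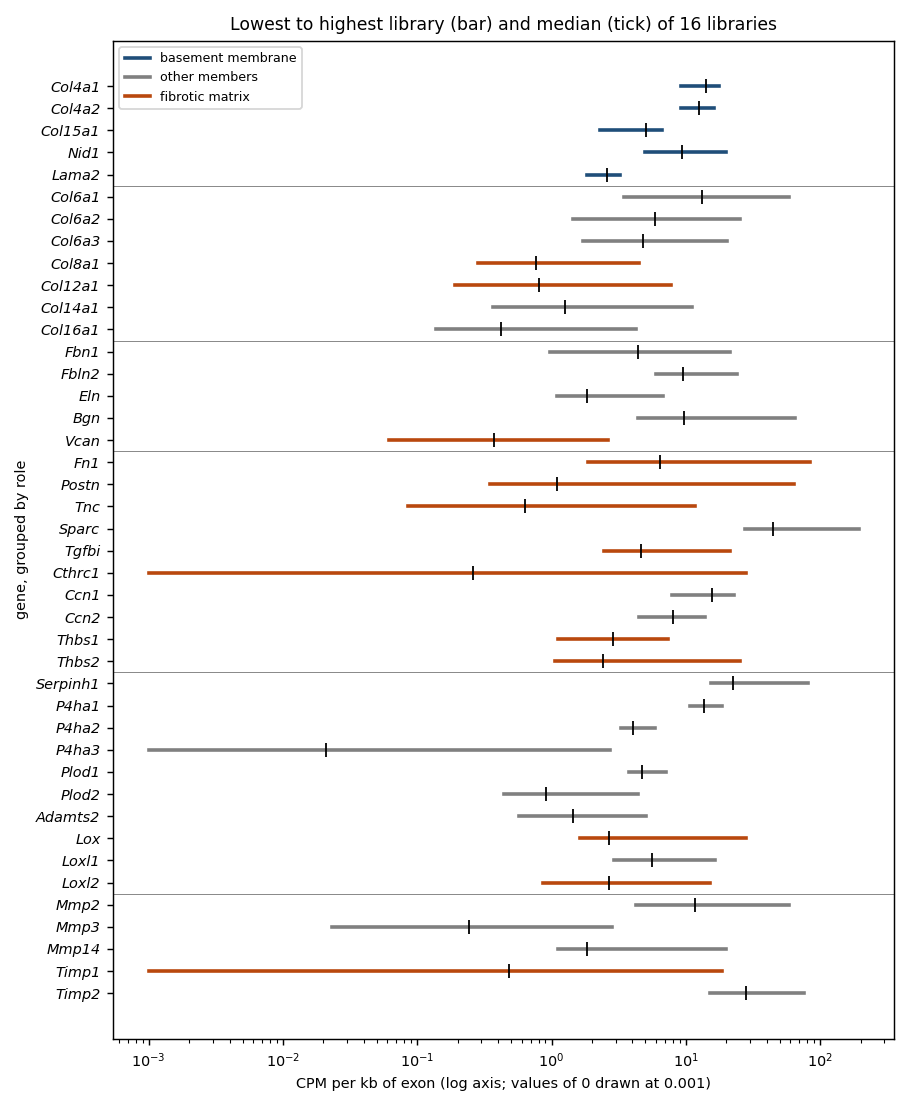
Level per kb of exon of each gene on a log axis, with a bar from the lowest to the highest of the 16 libraries and a tick at the median. The basement membrane bars span factors of 1.74 for Lama2, 1.75 for Col4a2, 1.93 for Col4a1, 2.90 for Col15a1 and 4.06 for Nid1, which is wider than Fbln2 at 4.01, and those of Postn and Tnc cover factors of 181 and 136.

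The contrast between basement membrane and fibrotic matrix was largest in the 3 libraries that led most members. Those libraries were picked from the same values, so this restates the choice and is no further finding. Each library was given, for each list, the median over genes of log2 (CPM + 0.1) relative to the gene's median over the 16 libraries. The fibrotic matrix value was 3.26 in healthy placebo 4 and 3.06 and 1.98 in injured placebo 2 and 3, while the basement membrane value in the same libraries was 0.25, 0.24 and 0.18. The basement membrane value lay between -0.64 in healthy placebo 1 and 0.31 in healthy inhibitor 3. The correlation of single members with Postn across the 16 libraries, on the log2 (CPM + 0.1) scale, was 0.60 for Col4a1, 0.52 for Col4a2, 0.45 for Col15a1, 0.77 for Nid1 and 0.27 for Lama2. Among fibrotic matrix members it was 0.96 for Cthrc1, 0.96 for Col8a1, 0.95 for Tnc, 0.94 for Fn1 and 0.76 for Thbs1, the lowest of that list. It was negative for P4ha1 (-0.31), Ccn1 (-0.22) and P4ha2 (-0.19). All genes of a library share its depth and scaling, and the correlations carry no test. They include the 3 libraries that led most members. Cthrc1 had fewer than 3 counts in 6 libraries, so its value there depends on the added 0.1.

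**Figure D4:**
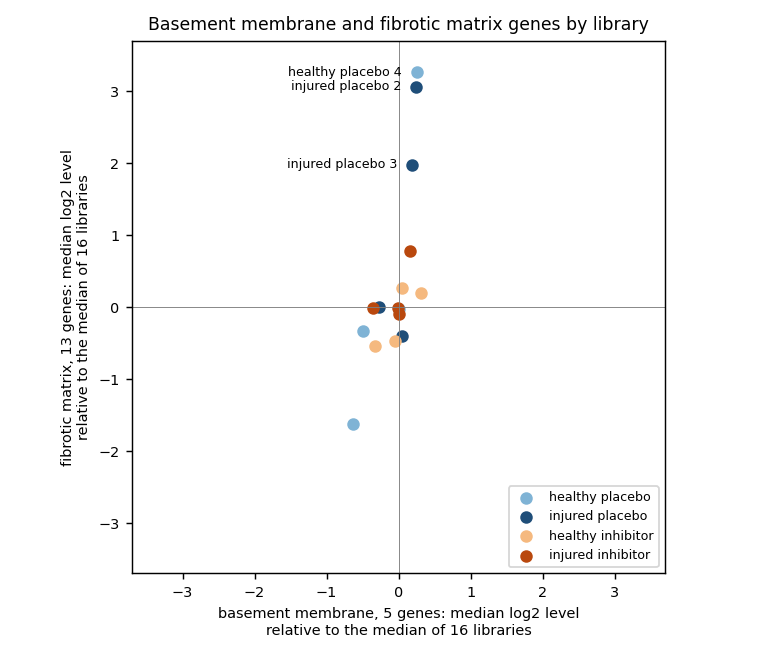
Median log2 level of the 5 basement membrane genes (x axis) against that of the 13 fibrotic matrix genes (y axis), relative to the median of 16 libraries, with 1 point for each library. Healthy placebo 4, injured placebo 2 and injured placebo 3 lie high on the fibrotic axis (3.26, 3.06 and 1.98) with basement membrane values of 0.25, 0.24 and 0.18.

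The genes most like Postn in pattern, by the same correlation over the 16 libraries, were P4ha3 and Sparc and Bgn, each at 0.97. P4ha3 was at 0 in 6 libraries and under 3 counts in 9, so its value there depends on the added 0.1 CPM. The joint marker Prg4 correlated with Fn1 at 0.93 and with Postn at 0.84, against 0.55 for Col4a1 and 0.23 for Lama2. Some markers of other cells moved with the same libraries. The summed level of 6 markers of fibro-adipogenic progenitors was highest in healthy placebo 4 (352 CPM), injured placebo 3 (353) and injured placebo 2 (311), against 123 to 285 elsewhere. Of these markers Pdgfra, Ly6a and Cd34 were each highest in these libraries, while Pi16, Dpp4 and Smoc2 were not. Pi16 was at 21.3 CPM in injured placebo 2 against 51.9 in healthy inhibitor 1, and Smoc2 was highest in healthy inhibitor 2 (120.5). The sum of 6 endothelial markers was lowest in healthy placebo 4, injured placebo 3 and injured placebo 2, at 235, 195 and 200 CPM, against 240 to 324 elsewhere. Cdh5 and Kdr were each lowest in these libraries, while Pecam1, Esam, Tek and Vwf were not. The part that RNA of joint lining, macrophages, neutrophils, progenitors or endothelium has in the levels of these genes was not tested.

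With placebo, injury was compared as injured placebo minus healthy placebo, to ask how the matrix genes of the muscle differed after ligament transection. No member differed by edgeR's quasi-likelihood test, and 39 of 42 were higher and 3 lower in the injured group, with a median log2 difference of 0.37 (range -0.06 to 1.85) against 0.01 over all 15411 genes tested. The median was 0.17 for the 5 basement membrane genes, all higher, and 0.59 for the 13 fibrotic matrix genes, all higher. The test called 0.0% of all genes at an adjusted p of 0.05, and DESeq2 called 0.013% of genes and no member. At an unadjusted p under 0.05 there were 0 of 42 members, against 7.24% of all genes. The groups of 4 libraries did not overlap for 0 of 42 members, against 0.87% of genes higher and 0.681% lower.

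Among single fibrotic matrix genes the error was larger than the difference for Fn1, Postn and Tnc. Fn1 was higher by 0.59 on the log2 scale (SE 1.11, adjusted p = 0.88 by edgeR), Postn by 0.22 (SE 1.47, adjusted p = 0.97) and Tnc by 0.65 (SE 1.17, adjusted p = 0.88). Timp1 was higher by 1.85 (SE 1.31, adjusted p = 0.69), Tgfbi by 0.88 (SE 0.57, adjusted p = 0.67) and Ccn2 by 0.54 (SE 0.34, adjusted p = 0.66). The basement membrane differences were 0.08 to 0.20 over the list, with 0.20 for Col4a1 (SE 0.17, adjusted p = 0.74) and 0.19 for Lama2 (SE 0.15, adjusted p = 0.71). For Col4a2, Col15a1 and Nid1 the error was larger than the difference. Single libraries of both groups moved the value: without healthy placebo 4 the median over members was 1.66, and without injured placebo 2 it was 0.00. The basement membrane median was -0.03 without healthy placebo 1. With the animal as a replicate block the median over members was 0.88. No member was called in any of these fits.

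The 4 placebo animals, as paired by library name, did not run in the same direction. In animals 1, 2 and 3, 40, 40 and 41 of the 42 members were higher in the injured quadriceps, with median log2 ratios of 0.94, 2.04 and 1.82. In animal 4, 0 of 42 were higher, and the median log2 ratio was -2.13. The limbs were used as labelled; no independent check of which limb of animal 4 was injured was made here, and both this ratio and the placebo injury comparison depend on it. All 13 fibrotic matrix genes were higher in the injured quadriceps of animals 1, 2 and 3 and lower in that of animal 4. The basement membrane genes had the medians smaller in size in each placebo animal, at 0.56, 0.25, 0.57 and -0.21. Those of fibrotic matrix were 1.59, 3.14, 2.35 and -3.19. Prg4 was 251 CPM in the healthy and 6.55 in the injured quadriceps of animal 4, 7.32 and 220 in animal 2, and 19.5 and 286 in animal 3. In animal 1, where Prg4 was 3.97 and 12.8 CPM, the healthy library was the one lowest for 29 members.

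With the inhibitor, injury was compared as injured inhibitor minus healthy inhibitor. No member passed the test, and the members scattered on both sides of 0, 29 higher and 13 lower, with a median of 0.07 (range -0.31 to 1.54) against 0.00 over all genes. The median was -0.02 for basement membrane and 0.18 for fibrotic matrix genes. edgeR called 0.0% of genes and DESeq2 0.00649%, with no member among them. At an unadjusted p under 0.05 there were 0 of 42 members, against 1.31% of genes. No member's groups were apart, against 1.13% of genes higher and 1.12% lower. The members with the smallest unadjusted p were Plod1, higher by 0.10 (SE 0.13, adjusted p = 1 by edgeR), Postn, by 1.32 (SE 1.57, adjusted p = 1) and P4ha3, by 1.54 (SE 2.37, adjusted p = 1), with counts of 4, 0, 4 and 0 in healthy and 0, 7, 15 and 1 in injured quadriceps. Over the 4 inhibitor animals, 10, 17, 33 and 35 of 42 members were higher in the injured quadriceps, with median log2 ratios between -0.19 and 0.34. The basement membrane medians were 0.0, -0.42, -0.09 and 0.45, against -0.29, 0.22, 0.63 and 0.41 for fibrotic matrix. In inhibitor animals 2 and 4 the basement membrane median was thus the larger in size. The median over members turned to -0.03 without healthy inhibitor 4 and to -0.07 without injured inhibitor 3.

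In injured quadriceps, the inhibitor was compared with placebo to ask whether the matrix genes of injured muscle differed with CSF1-R inhibition. No member passed the test, but 40 of 42 were lower and 2 higher with the inhibitor, with a median of -1.13 (range -5.07 to 0.45) against -0.02 over all genes. The median was -0.06 for the basement membrane genes and -1.85 for the fibrotic matrix genes, and every gene of both lists was lower. By role, the medians were -1.33 for the microfibrillar and fibril-associated collagens, -1.26 for elastic fibres and proteoglycans, -1.70 for adhesive and matricellular proteins, -0.88 for collagen maturation and crosslinking and -1.58 for proteases and inhibitors. edgeR called 0.0% of genes and DESeq2 1.73%, with no member among the latter. At an unadjusted p under 0.05 there were 4 of 42 members, Tgfbi, Cthrc1, Timp1 and Plod2, all lower, against 14.9% of all genes, so the members' share was below the background. Groups did not overlap for Tgfbi and Thbs2, both lower, which is 2 of 42, against 2.87% of genes lower and 2.77% higher. Plod2 and Thbs2 are named here after their values were seen.

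Among single genes, Fn1 differed by -2.22 on the log2 scale (SE 1.16, adjusted p = 0.39 by edgeR). Postn differed by -3.03 (SE 1.60, adjusted p = 0.40), Tnc by -2.44 (SE 1.25, adjusted p = 0.38) and Timp1 by -3.13 (SE 1.40, adjusted p = 0.32). Tgfbi differed by -1.55 (SE 0.58, adjusted p = 0.26 by edgeR) and Cthrc1 by -5.07 (SE 2.08, adjusted p = 0.29). Cthrc1 had 10, 1226, 378 and 9 counts in injured placebo and 2, 16, 20 and 1 in injured inhibitor. The size of its fitted value is therefore uncertain. The basement membrane genes ranged from -0.23 to -0.04, with -0.06 for Col4a1 (SE 0.17, adjusted p = 0.91) and -0.04 for Lama2 (SE 0.15, adjusted p = 0.93). Without the 4 libraries high in Prg4, which leaves 2 injured placebo libraries, the median over members was 0.23. That of fibrotic matrix was 0.13, so the direction turned. Those left out include healthy placebo 4, injured placebo 2 and injured placebo 3, the highest libraries for 33 of the 42 members. Removing them lowers the placebo side by that choice, so the turn is a description and not a separate test. Without injured placebo 2 alone the median over members was -0.60. Macrophage markers were also highest in the 2 injured placebo libraries with high Prg4; their part in the result was not tested.

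**Figure D5:**
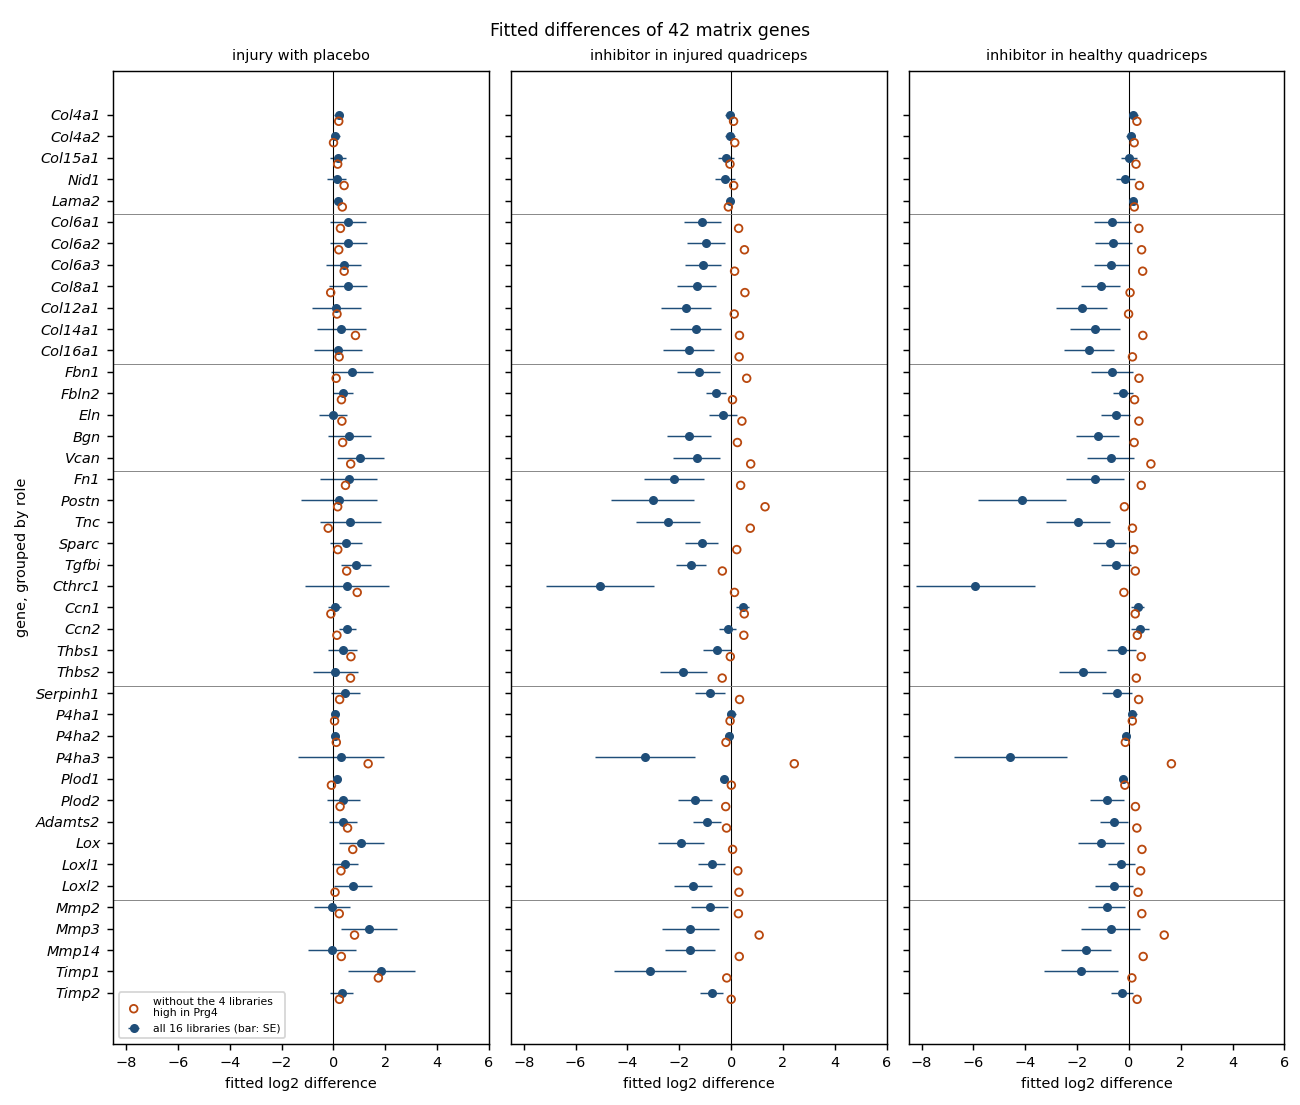
Fitted log2 difference of each of the 42 genes, grouped by role, in 3 of the comparisons; filled points are fits of all 16 libraries with bars of 1 SE, and open points are fits without the 4 libraries high in Prg4, drawn without bars. In injured quadriceps the inhibitor points lie mostly left of 0 (median -1.13), the open points have a median of 0.23, and the basement membrane points lie near 0 (median -0.06).

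In healthy quadriceps, the comparison of inhibitor with placebo asks how matrix genes differed with the treatment in muscle without the ligament injury. No member passed the test, and 36 of 42 were lower and 6 higher with the inhibitor, with a median of -0.65 (range -5.92 to 0.43) against -0.02 over all genes. The basement membrane median was 0.08 and the fibrotic matrix median -1.32, with all 13 fibrotic genes lower. edgeR called 0.0% of genes and DESeq2 0.0714%, with no member among them. At an unadjusted p under 0.05 there were 2 of 42 members, Cthrc1 and Postn, both lower, against 3.34% of genes. No member's groups were apart, against 0.96% of genes higher and 1.59% lower. Cthrc1 differed by -5.92 (SE 2.31, adjusted p = 1 by edgeR), Postn by -4.13 (SE 1.70, adjusted p = 1) and P4ha3 by -4.57 (SE 2.19, adjusted p = 1). In the healthy inhibitor libraries Cthrc1 had 2, 1, 13 and 0 counts and P4ha3 4, 0, 4 and 0. In healthy placebo the counts were 1, 10, 4 and 940 for Cthrc1 and 0, 0, 1 and 195 for P4ha3. The fitted values of both genes rest on few counts and on healthy placebo 4, and their size is uncertain. Healthy placebo 4 decided the direction: without it the median over members was 0.43 and that of fibrotic matrix 0.37, and Postn was at 0.16.

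The difference of the injury effects, injury with inhibitor minus injury with placebo, tests whether the 2 injury comparisons differ. No member passed it, and 33 of 42 were below 0 and 9 above, with a median of -0.31 (range -1.28 to 1.25) against 0.00 over all genes. The median was -0.19 for basement membrane and -0.48 for fibrotic matrix genes. edgeR called 0.0% of genes and DESeq2 0.0%, and at an unadjusted p under 0.05 there were 0 of 42 members against 2.74% of genes. Tgfbi differed by -1.04 (SE 0.80, adjusted p = 1 by edgeR), Ccn2 by -0.56 (SE 0.48, adjusted p = 1) and Col4a1 by -0.22 (SE 0.24, adjusted p = 1). Without healthy placebo 4 the median over members was -1.54, and without injured placebo 2 it was 0.10. The inhibitor comparisons share libraries with the injury comparisons, so their values are not independent of each other.

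Other genes of the matrix, from 2 lists of genes that are not members, were read in the same fits. Of 14 other basement membrane genes such as Lamb2, Lamc1 and Hspg2, 13 were tested, and none was called in any comparison. In healthy quadriceps, however, 3 of the 13 had an unadjusted p under 0.05 and 3 had groups that did not overlap, all lower with the inhibitor, against 3.34% and 1.59% of all genes; those apart were Lama5, Lamb2 and Agrn, named after their values were seen. In injured quadriceps 1 of the 13 had an unadjusted p under 0.05 by edgeR, lower with the inhibitor, against 14.9% of all genes. Groups did not overlap there for 1, Agrn again, also lower, against 2.87% of genes lower. The median of the 13 was 0.12 for injury with placebo and -0.02 for injury with inhibitor. For the inhibitor it was -0.20 in injured and -0.12 in healthy quadriceps. Of 39 other interstitial matrix and remodelling genes such as Dcn, Lum and Fap, 37 were tested and none was called; their medians in the same order were 0.50, 0.04, -0.81 and -0.30. Without the 4 libraries high in Prg4 the interstitial medians turned to 0.16 for the inhibitor in injured and 0.23 in healthy quadriceps, and that of the other basement membrane genes to 0.05 in healthy quadriceps. The interstitial list had its highest values in the same 3 libraries, at 1.37 in healthy placebo 4 and 1.53 and 1.08 in injured placebo 2 and 3 on the relative log2 scale, against 0.34, 0.37 and 0.11 for the other basement membrane genes.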

How the data were processed

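RNA-seq of 16 mouse quadriceps libraries was analysed from a deposited table of expected counts per Ensembl gene, not normalized, in which 33.8% of values were not whole numbers. The submitters' processing notes name the builds GRCm38 and mm10 and the tools STAR, DESeq2 and Partek, but neither versions nor what each was used for; strand handling and annotation release are not given in the sources used here. Every gene in the table reached a count of 10 in some library. Symbols, coordinates and exon lengths came from GENCODE M21 by Ensembl ID, and promoter windows from RefSeq (GRCm38.p6). Exons of 5 members share bases with another gene of the table on the opposite strand (Col4a1, Col4a2, Fbn1, Loxl2 and Plod2). Exon length is the union over all annotated transcripts, so CPM per kb is low for genes with long minor transcripts.

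Counts were rounded to whole numbers. In R 4.3.3, filterByExpr of edgeR 4.0.16 (minimum count 10) left out 1959 genes and kept 15411, all 42 members among them; edgeR then scaled by TMM and fitted 4 group means with the robust quasi-likelihood method (12 residual degrees of freedom). The 5 comparisons were two-sided with Benjamini-Hochberg adjustment over the tested genes at 0.05, and the SE is the difference divided by the square root of its F statistic. The alternatives were DESeq2 1.42.0, its size factors in edgeR, no filter on low counts, only the 8 libraries compared, a replicate block, each library left out, and the 4 libraries with Prg4 over 100 CPM left out. Scripts were tested on simulated data. The members, the lists, the Prg4 limit and the motifs were chosen with earlier results of these data known, and the grouping by role was made in the course of the analysis. Fitted statistics were given by a rule: for Col4a1, Lama2, Fn1, Postn, Tnc and Timp1 in injury with placebo and in the inhibitor comparison in injured quadriceps, and for the 3 members with the smallest unadjusted p in each comparison.

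The correlation of the paired libraries' deviations from their group means was 0.47, -0.18, -0.11 and -0.53 for placebo animals 1 to 4 and 0.23, -0.04, -0.01 and -0.10 for inhibitor animals over all genes. Over the 42 members it was 0.86, -0.63, -0.63 and -0.83, and -0.10, -0.34, 0.08 and 0.48. The pairing comes from library names, and the block was kept as an alternative.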

Additional observations from a re-analysis of the deposited data

Results flagged for a closer look

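Within groups of 4 libraries, the highest or lowest library of a member was compared with the rest by Dixon's criterion, in 168 gene and group combinations. The criterion picked out 33. Its rate of about 1 in 20 holds for independent, normally distributed values. Here it was applied to CPM without a log scale, in genes that moved together. The 33 are therefore a description and are not set against that rate. Of these, 23 were in healthy placebo 4, all above the other 3 healthy placebo libraries.

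In healthy placebo 4 the basement membrane genes were not among them. The collagens there were Col6a3 at 242 CPM, Col12a1 at 118, Col14a1 at 78.5 and Col16a1 at 28.5. The elastic fibre and proteoglycan genes were Eln at 54.7 CPM, Bgn at 399 and Vcan at 25.1. The adhesive and matricellular genes were Fn1 at 975 CPM, Postn at 551, Tnc at 70.4, Sparc at 735, Cthrc1 at 41.5, Thbs1 at 44.9 and Thbs2 at 177. Among maturation and crosslinking genes were Serpinh1 at 182 CPM, P4ha3 at 8.60, Plod2 at 23.6, Lox at 82.0 and Loxl1 at 53.9. The proteases and inhibitors were Mmp2 at 198 CPM, Mmp3 at 2.73, Mmp14 at 119 and Timp1 at 5.69. The same library had 251 CPM of Prg4, and the part of joint lining RNA in these levels was not tested.

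In injured inhibitor 3, Col14a1 at 17.0 CPM, Bgn at 96.0, Mmp3 at 1.65 and Timp1 at 1.45 were above the rest of their group. Fn1 at 239 CPM in healthy inhibitor 1 was above its group, in a library with 169 CPM of Prg4. Ccn1 at 39.5 CPM and P4ha1 at 76.3 CPM were high in healthy placebo 1, and Ccn2 at 27.7 CPM in injured inhibitor 1. Tgfbi at 11.4 CPM was low in injured inhibitor 2, and Col15a1 at 23.8 CPM in injured placebo 1.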

How the results depend on the processing

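No member was called by edgeR or DESeq2 in any comparison under any alternative run. DESeq2 called 2 genes for injury with placebo, 1 for injury with inhibitor, 256 for the inhibitor in injured and 11 in healthy quadriceps, where edgeR called 0; the cause was not tested. With single libraries left out, genes called ranged from 0 to 3 (3 without injured placebo 4) for injury with placebo, 0 to 38 (38 without injured placebo 4) for the inhibitor in injured and 0 to 1 (1 without healthy placebo 1) in healthy quadriceps. Over the same fits, the median of all members ranged from 0.00 to 1.66 and that of fibrotic matrix from -0.01 to 2.75 for injury with placebo, from -1.0 to 0.43 and -1.80 to 0.37 for the inhibitor in healthy quadriceps, and from -1.54 to 0.10 and -2.36 to 0.20 for the difference of the injury effects. For injury with placebo, Fn1 ranged from -0.01 to 3.05, Postn from -0.89 to 4.51 and Tnc from -0.67 to 2.98. For the inhibitor, Col4a1 ranged from -0.14 to 0.03 and Lama2 from -0.11 to 0.07 in injured quadriceps, and Postn from -4.54 to 0.16 and P4ha3 from -5.16 to 2.24 in healthy quadriceps. These turns of direction came without healthy placebo 4 in healthy quadriceps and, for Fn1, Tnc and the difference of the injury effects, without injured placebo 2; for Col4a1 they came without injured placebo 3 or injured inhibitor 2, and for Lama2 without injured placebo 1 or injured inhibitor 4; Postn for injury with placebo turned without any 1 of healthy placebo 1, 2 or 3 or injured placebo 2.

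Without the 4 libraries with high Prg4, Tnc was at -0.20 for injury with placebo. The inhibitor comparison in injured quadriceps then gave 0.23 for the median of all members, 0.13 for fibrotic matrix, 0.09 for Col4a1, 0.37 for Fn1, 1.31 for Postn, 0.74 for Tnc and 0.13 for Cthrc1. In healthy quadriceps the fibrotic matrix median was 0.25 and P4ha3 was at 1.64, and Ccn2 was at 0.16 in the difference of the injury effects. The libraries left out include healthy placebo 4, injured placebo 2 and injured placebo 3, which led most members. A turn after leaving them out is therefore a description. The cause was not tested.

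With the replicate block, the median over members was 0.88, 0.08, -0.77, -0.03 and -0.80 in the order of the report's comparisons, Postn was at 2.66 for injury with placebo, and no gene was called. For both inhibitor comparisons (-0.77 and -0.03) the block is a shared replicate number between different animals, not an animal. The block leaves 6 residual degrees of freedom in the injury comparisons. Members under 3 counts in many libraries, Cthrc1 and P4ha3, are limited by depth.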
